A study of Mus musculus with 24 samples.

Results

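Small RNAs keep transposons silent in germ cells, and 10 genes of this machinery were read from the RNA-seq table of class IV mouse oocytes grown in vitro in 5% O2 or in 20% O2. They are the Dicer and Argonaute genes Dicer1 and Ago2 and the PIWI pathway genes Piwil2, Mov10l1, Tdrd1, Tdrd9, Pld6, Mael, Gtsf1 and Ddx4, chosen by name and found once each among the 16572 gene names of the table. Between the culture conditions, 2 of the 10 genes were at least 2-fold apart, against 27.9% of all genes tested. Piwil2 had 32.1 RPM (reads per 1000000 reads) in IV 5% O2 against 76.1 RPM in IV 20% O2, and Tdrd9 had 35.3 against 79.1 RPM. In the other direction Mael had the largest difference, with 67.2 RPM in IV 5% O2 against 39.7 RPM in IV 20% O2. Tdrd1 had 549 against 458 RPM and Ddx4 133 against 120 RPM, differences whose direction depends on the scaling.

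Oocytes were taken from ovaries of mice of the strain given as C57BL/6 Barb at 7 days of age and were grown in follicle-free culture, without drug treatment, to class IV, labelled as 60 to 70 µm across. The IV 5% O2 oocytes were cultured for 9 days and the IV 20% O2 oocytes for 14 days, and the medium was changed more often in 5% O2, so oxygen, culture time and feeding cannot be told apart. The study's text names females of a cross between C57 Black6 and SV129 backgrounds, which the strain label does not give. For the IV 20% O2 oocytes it gives a size range that starts and ends lower than that of their labels. Each condition had 2 libraries of pooled oocytes, but the table holds 1 column per condition, so no SD, no p-value and no replicate check can be given for any difference here. In such bulk samples, fewer cells of a type and less RNA per cell cannot be told apart.

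In the germ line, PIWI proteins carry piRNAs, which are cut from long transposon-rich precursors and guide the cleavage of transposon RNA and the methylation of transposon DNA. Dicer instead cuts double-stranded RNA into microRNAs and short interfering RNAs, which are loaded on Argonaute proteins. The mouse oocyte is known for its reliance on Dicer-made short interfering RNAs, whereas the PIWI pathway is best known from the male germ line, although its genes are also transcribed in oocytes.

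The depth implied by the value of 1 read was 132185252 reads for IV 5% O2 and 40875358 reads for IV 20% O2. Differences are given as IV 5% O2 minus IV 20% O2 on log2(RPM + 1), which understates the change of low genes, for the 14704 genes that average 1 RPM or more. The 95% limits beside a difference are exact limits of the log2 read ratio without the added 1, those beside an RPM are exact Poisson limits, and all cover counting error only. Over all genes tested the median log2 difference was 0.26, with quartiles of -0.31 and 0.82. Of the genes tested, 18.7% were at least 2-fold higher in IV 5% O2 and 9.22% at least 2-fold lower. Of the 10 silencing genes, 0 were at least 2-fold higher and 2 were at least 2-fold lower. Their median log2 difference was -0.082, or -0.34 from the median gene. Median-ratio scaling moved the median of all genes to -0.04 and quantile normalization moved it to 0.056. These scalings gave 45.6% and 48.6% of all 2-fold differences as higher in IV 5% O2, in place of 67.0%, so the members are also described relative to the median gene.

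**Figure D1:**
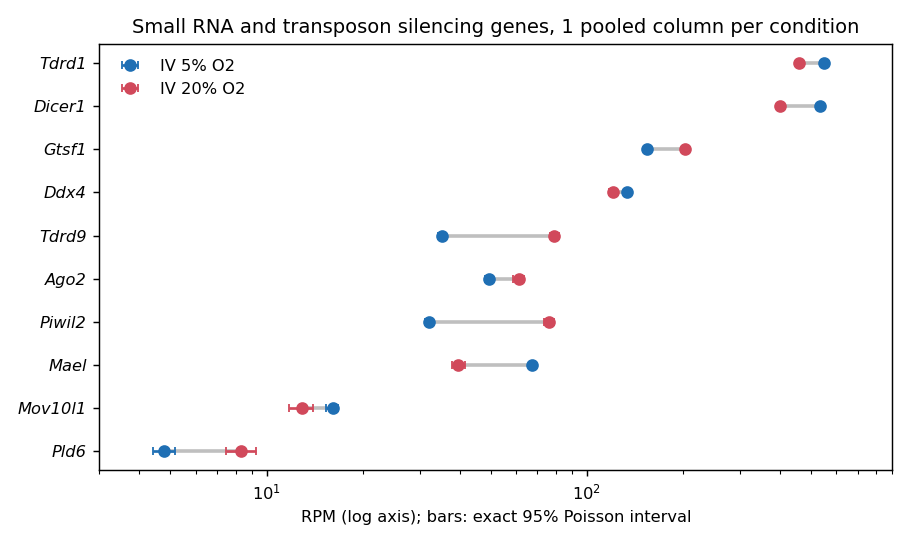
RPM of each of the 10 genes in IV 5% O2 (blue) and IV 20% O2 (red) on a log axis, 1 pooled column per condition, with bars for the exact 95% Poisson interval of the read count. Piwil2 and Tdrd9 lie furthest to the right in IV 20% O2 relative to IV 5% O2, Mael lies the other way, and the intervals of the conditions are apart for each gene.

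The upstream promoter sequence is a feature that the choice of the genes did not use. RefSeq start sites on GRCm38.p6 gave 11 windows for 8 of the genes, and Piwil2 and Ago2 had no entry. The 250 bases before each start were searched on both strands for the E-box with the letters CACGTG, the CCAAT box with the letters CCAAT, an E2F-like site read as TCCCGC, the TATA box read as TATAAA and the element of the oocyte factor Nobox read as TAATTG. An upstream E-box was found for 6 of the 8 genes, namely Mov10l1, Tdrd1, Tdrd9, Pld6, Mael and Ddx4. For comparison, 6.02% of all 32851 windows hold it, as do 6.86% of 27025 genes and 9.09% of the 15211 windows with at least 7 CpG, a count that includes the CpG of the motif itself. It was found for 3 of 16 other PIWI pathway genes with a window (Piwil1, Stk31 and Fkbp6) and for 1 of 15 other miRNA and siRNA genes (Tnrc6b). The genes with an E-box include those with the lowest and the highest difference that have a window, Tdrd9 and Mael.

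The whole windows of these extremes are shown so that they can be compared, with the letters of the E-box, CCAAT box and E2F-like site of either strand in capitals and the start site following the last base. Tdrd9 is on the plus strand at chr12:111971309-111971558 and Mael on the minus strand at chr1:166238745-166238994.
Tdrd9: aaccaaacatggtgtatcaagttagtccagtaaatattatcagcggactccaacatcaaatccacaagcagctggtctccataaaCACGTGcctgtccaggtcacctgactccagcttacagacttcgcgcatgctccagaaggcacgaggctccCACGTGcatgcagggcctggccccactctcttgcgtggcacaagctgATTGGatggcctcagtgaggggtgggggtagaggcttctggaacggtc
Mael: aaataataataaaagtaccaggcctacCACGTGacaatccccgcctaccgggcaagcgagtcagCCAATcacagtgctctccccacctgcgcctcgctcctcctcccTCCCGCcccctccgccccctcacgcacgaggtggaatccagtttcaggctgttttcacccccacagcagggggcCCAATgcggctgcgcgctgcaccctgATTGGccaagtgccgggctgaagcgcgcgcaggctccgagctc
The window of Tdrd9 holds 2 E-boxes and 1 CCAAT box and has 8 CpG, and that of Mael holds 1 E-box, 3 CCAAT boxes and 1 E2F-like site and has 18 CpG, against a median of 6 CpG over all windows. CCAAT boxes were found for 6 of the 8 genes (Dicer1, Mov10l1, Tdrd9, Pld6, Mael and Ddx4) and occur in 33.9% of all windows, and E2F-like sites were found for 3 of the 8 (Dicer1, Mael and Ddx4) and occur in 16.9%. These counts are per gene and the shares per window, and Tdrd1 and Pld6 had more than 1 window.

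For the other genes with an E-box, the motif is shown in capitals with up to 20 bases on each side, as far as the window reaches, each in the direction of its gene. The stretches are chr15:88982744-88982773 for Mov10l1 (plus strand), chr19:56826178-56826223 for Tdrd1 (plus strand), chr11:59787665-59787710 for Pld6 (minus strand) and chr13:112652314-112652359 for Ddx4 (minus strand).
Mov10l1: ccttCACGTGctaaccgccaacctctcgtg
Tdrd1: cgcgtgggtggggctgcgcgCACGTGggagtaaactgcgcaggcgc
Pld6: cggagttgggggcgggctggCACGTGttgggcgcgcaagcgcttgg
Ddx4: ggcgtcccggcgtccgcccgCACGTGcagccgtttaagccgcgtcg
The motif begins 246 bases before the start of Mov10l1, 77 bases before one start of Tdrd1 and 11 bases before another, 33 bases before one of the Pld6 starts and 29 bases before the start of Ddx4. The windows of Dicer1 and Gtsf1, with 39 and 7 CpG, do not hold these letters. The TATA box and the Nobox element, present in 12.4% and 7.17% of all windows, were in none of the 11. A match is a description of the letters only, and binding was not measured.

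Dicer1, the ribonuclease that makes microRNAs and short interfering RNAs, was among the more abundant of the 10 genes and was somewhat higher at 5% O2. It lies on chromosome 12 of GRCm38 from 104687742 to 104751952 on the minus strand. It had 70614 reads or 534 RPM at 5% O2 and 16386 reads or 401 RPM at 20% O2. The log2 difference was 0.41 (95% limits 0.39 and 0.44), or 0.16 from the median gene, so Dicer1 stood close to the middle of all genes. Mouse oocytes also make a shorter Dicer from a retrotransposon-derived start within the gene, and the value of the whole gene does not separate the forms.

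Ago2, the Argonaute that can cut its target RNA, lies on chromosome 15 from 73095844 to 73184935. It had 49.3 RPM at 5% O2 and 61.3 RPM at 20% O2. The log2 difference of -0.31 (95% limits -0.38 and -0.25), or -0.57 from the median gene, was opposite in sign to that of Dicer1. Chrac1, a gene on the opposite strand, shares 219 bases or 1.56% of the Ago2 exons. Per kb of exon, Ago2 made up 37.9% of the summed level of Ago1 to Ago4 at 5% O2 and 42.2% at 20% O2, and Ago3 made up 39.8% and 38.1%. Ago1 followed with 20.0% and 18.6%, and Ago4, with 207 and 34 reads, made up 2.43% and 1.16%. The other Argonautes can bind small RNAs, but Ago2 is the family member known for slicing.

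Piwil2, also called Mili, is the PIWI protein that binds piRNAs and cuts transposon transcripts in fetal and growing germ cells. It lies on chromosome 14 from 70372477 to 70429383 on the minus strand. Piwil2 had 4248 reads at 5% O2 and 3109 reads at 20% O2, although the IV 5% O2 column is 3.23 times as deep. In RPM these were 32.1 (95% limits 31.2 and 33.1) and 76.1 (95% limits 73.4 and 78.8). The log2 difference of Piwil2 was -1.22 (95% limits -1.31 and -1.18), or -1.48 from the median gene, and 6.68% of all genes tested had a lower difference. It was the lowest difference of the 10 genes under each of the 8 alternatives. Of these, no filter, a filter at 5 RPM and summed rows could not change the value of any of the 10 genes.

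Tdrd9, a Tudor protein with an RNA helicase domain that acts with the nuclear PIWI complex, was close to Piwil2 in both its level and its difference. It lies on chromosome 12 from 111971559 to 112068854. Tdrd9 had 4669 reads or 35.3 RPM at 5% O2 and 3235 reads or 79.1 RPM at 20% O2. Its log2 difference was -1.14 (95% limits -1.23 and -1.10), or -1.40 from the median gene, and 7.40% of the genes tested had a lower difference. Piwil2 and Tdrd9 were at least 2-fold lower at 5% O2 under each of the 8 alternatives, with differences between -1.53 and -1.05. Again, no filter, the filter at 5 RPM and summed rows could not move either value. Per kb of exon, Tdrd9 made up 2.68% of the summed level of 10 Tudor domain genes at 5% O2 and 7.10% at 20% O2, while the share of Tdrd1 was 41.4% and 40.9%.

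**Figure D2:**
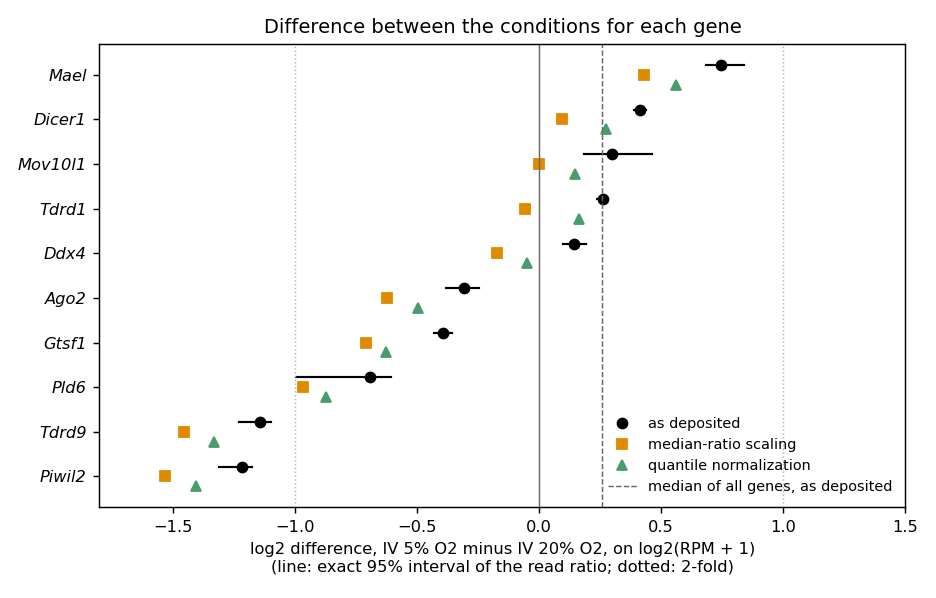
Log2 difference of each gene, IV 5% O2 minus IV 20% O2, as deposited (black, with the exact 95% interval of the read ratio), with median-ratio scaling (orange) and with quantile normalization (green). Piwil2 and Tdrd9 lie to the left of the dotted 2-fold line with each scaling, Mael, Dicer1 and Mov10l1 stay at or above 0, and Tdrd1 and Ddx4 cross 0.

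Pld6, a nuclease of the outer mitochondrial membrane that cuts piRNA precursors, had the lowest RPM of the genes. It lies on chromosome 11 from 59783897 to 59787645. Pld6 had 631 reads or 4.77 RPM at 5% O2 and 340 reads or 8.32 RPM at 20% O2. The log2 difference was -0.69 (95% limits -0.99 and -0.61), or -0.95 from the median gene, so it lay below 2-fold in size. With the pseudocount of 5 RPM it was -0.45.

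Mov10l1, the RNA helicase that hands piRNA precursors to this processing, lies on chromosome 15 from 88982909 to 89055152. It had 2120 reads or 16.0 RPM at 5% O2 and 525 reads or 12.8 RPM at 20% O2. The log2 difference of 0.30 (95% limits 0.18 and 0.46) was 0.04 from the median gene, which leaves Mov10l1 at the middle of all genes, and median-ratio scaling took it to 0.001. Mov10, its relative outside the germ line and an inhibitor of retrotransposons, had 7.13 RPM at 5% O2 (943 reads) and 3.01 RPM at 20% O2 (123 reads), a log2 difference of 1.02 that fell short of 2-fold under both scalings and with a pseudocount of 5 RPM.

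Mael, or Maelstrom, is needed for the silencing of transposons downstream of piRNA processing. It lies on chromosome 1 from 166201201 to 166238747 on the minus strand. Mael had 8879 reads or 67.2 RPM at 5% O2 and 1622 reads or 39.7 RPM at 20% O2. Its log2 difference of 0.75 (95% limits 0.68 and 0.84) was 0.49 from the median gene and remained positive with median-ratio scaling (0.43) and quantile normalization (0.56). A lower difference was found for 72.1% of all genes tested, so Mael lies inside the range that most genes span. The 2 largest changes of a ratio between any pair of the 10 genes, named for their size, were those of Piwil2 and of Tdrd9 to Mael. The RPM ratio of Piwil2 to Mael was 0.478 at 5% O2 and 1.92 at 20% O2, a 4.01-fold change that no scaling by 1 factor per column can alter. The ratio of Tdrd9 to Mael changed 3.79-fold, from 1.99 at 20% O2 to 0.526 at 5% O2.

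Gtsf1, a small zinc finger protein that helps PIWI proteins to cut their targets, lies on chromosome 15 from 103402405 to 103430470. It had 154 RPM at 5% O2 and 203 RPM at 20% O2. The log2 difference was -0.39 (95% limits -0.43 and -0.36), or -0.65 from the median gene.

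Tdrd1, a Tudor scaffold protein that binds Piwil2 in the material between mitochondria, and Ddx4, the Vasa helicase that marks germ cells, were among the most abundant of the genes. Tdrd1 lies on chromosome 19 from 56826209 to 56870012 and had 549 RPM (72552 reads) at 5% O2 and 458 RPM (18733 reads) at 20% O2. Its log2 difference of 0.26 (95% limits 0.24 and 0.28) was 0.001 from the median gene, and median-ratio scaling turned it to -0.059. Ddx4 lies on chromosome 13 from 112598333 to 112652475 and had 133 and 120 RPM. Its log2 difference of 0.14 (95% limits 0.10 and 0.19) was -0.11 from the median gene, and the difference itself was -0.17 under median-ratio scaling and -0.051 under quantile normalization.

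**Figure D3:**
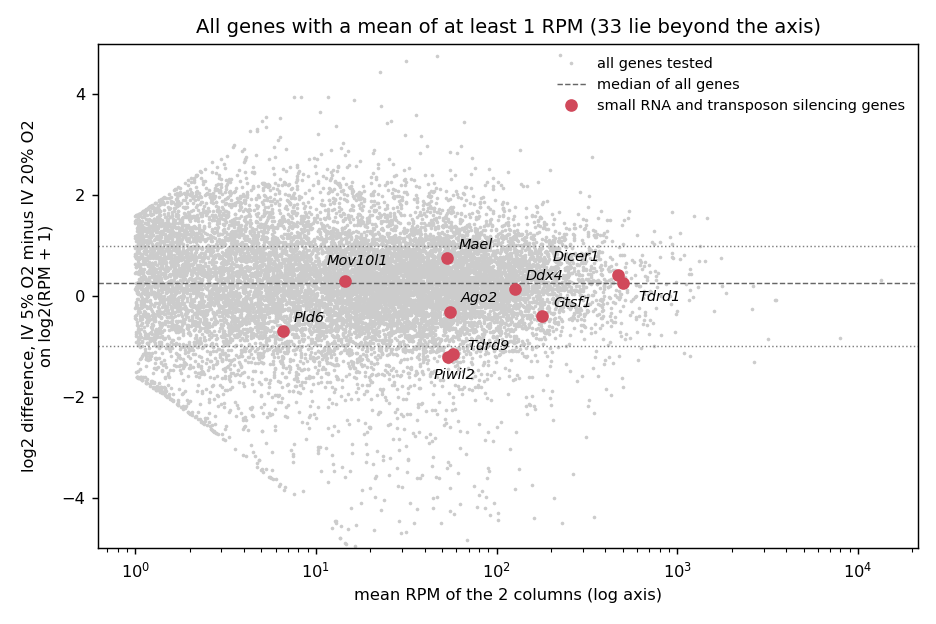
Log2 difference against the mean RPM of both columns (log axis) for all genes tested (grey) and the 10 genes (red), with the median of all genes dashed and 2-fold dotted. Most of the 10 genes lie within the dense band of genes, and Piwil2 and Tdrd9 lie beneath its lower 2-fold line.

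To compare levels between genes, RPM were divided by the exonic length in kb, taken as the union of the exons annotated in GENCODE M21. Gtsf1 had the highest level of the 10 genes in both conditions, with 111 RPM per kb at 5% O2 and 146 RPM per kb at 20% O2, which placed it at ranks 235 and 152 of 16553 genes. Tdrd1 followed with 101 and 84.2 RPM per kb, at ranks 277 and 326, and Ddx4 with 44.1 and 39.9 RPM per kb. Mael and Dicer1 had 38.8 and 31.9 RPM per kb at 5% O2, which put Mael above Dicer1. In IV 20% O2 they had 22.9 and 23.9 RPM per kb, and their counting intervals met.

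The level of Tdrd9 was 6.52 RPM per kb at 5% O2 and 14.6 RPM per kb at 20% O2, and that of Piwil2 was 6.08 and 14.4 RPM per kb. The intervals of this pair met at 20% O2 but not at 5% O2. Ranks of the pair moved from 3004 (Tdrd9) and 3050 (Piwil2) at 20% O2 to 6181 and 6432 at 5% O2. Mov10l1, Ago2 and Pld6 had the lowest levels, between 2.72 and 4.73 RPM per kb, which is close to the median of all genes of 3.61 RPM per kb at 5% O2 and 3.15 RPM per kb at 20% O2. With the longest annotated transcript in place of the union of exons, Gtsf1 had 188 and 248 RPM per kb and Dicer1 had 54.2 and 40.7 RPM per kb. That put Dicer1 above Mael in both conditions and above Ddx4 at 5% O2. At 20% O2 Dicer1 and Ddx4 lay close together, at 40.7 and 39.9 RPM per kb, and their counting intervals were not compared.

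**Figure D4:**
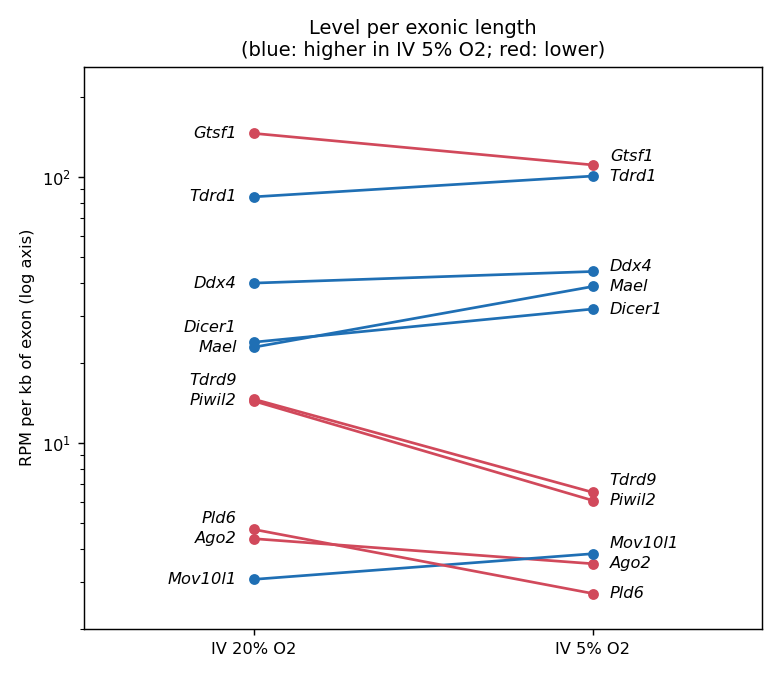
RPM per kb of exon (log axis) of each gene at 20% O2 (left) and IV 5% O2 (right), in blue where higher in IV 5% O2 and in red where lower. Gtsf1 and Tdrd1 stay at the top in both, Tdrd9 and Piwil2 lie side by side and are lower together at 5% O2, and Mael lies above Dicer1 at 5% O2 with this measure of length.

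The wider pathway was read from a pair of lists. Of 16 other miRNA and siRNA genes, all tested, 1 was at least 2-fold higher at 5% O2, Mov10, and 0 were at least 2-fold lower, against 18.7% and 9.22% of all genes tested. Their median log2 difference was -0.073, or -0.33 from the median gene, and 13 of 16 lay below the median gene. By the mean of both conditions, the most abundant per kb were Tsnax, which encodes a subunit of a nuclease that clears Argonaute passenger strands, with 35.8 RPM per kb at 5% O2 and 33.1 RPM per kb at 20% O2, and Xpo5, the nuclear exporter of microRNA precursors, with 13.9 and 17.0 RPM per kb. Xpo5 stood below Tarbp2 at 5% O2 and below Drosha at 20% O2, and 12.1% of the 50-base exon windows of Tsnax and 19.9% of those of Tarbp2 occur elsewhere in the genome too.

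Of 28 other PIWI pathway genes, 24 are in the table and were tested. By at least 2-fold, 3 were higher and 2 were lower at 5% O2, and the median log2 difference was 0.43, or 0.17 from the median gene. Piwil1, the PIWI protein known from male meiosis and after, had 1567 reads or 11.9 RPM at 5% O2 and 21 reads or 0.514 RPM at 20% O2. Its log2 difference was 3.09, the log2 read ratio lay between 3.91 and 5.22, and 99.8% of the genes tested had a lower difference. Piwil1 and Piwil2 thus differed in opposite directions, and per kb Piwil1 made up 30.9% of their sum at 5% O2 and 0.813% at 20% O2.

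Kif17, a kinesin motor found with PIWI complexes, had 270 RPM at 5% O2 and 97.4 RPM at 20% O2 (log2 difference 1.46) and was the most abundant of the list per kb by the mean of both conditions, with 58.9 and 21.3 RPM per kb, although Henmt1, Tdrd5 and Tex15 stood above it at 20% O2. With the longest transcript Tdrd5 stood above Kif17 by that mean, with 62.4 and 64.0 against 78.2 and 28.2 RPM per kb. Tdrd5, a Tudor and LOTUS domain protein, had 33.8 and 34.7 RPM per kb and a log2 difference of -0.04. Spocd1, which links piRNAs to de novo DNA methylation, had 3.77 RPM at 5% O2 (498 reads) and 0.954 RPM at 20% O2 (39 reads), a log2 difference of 1.29 that fell short of 2-fold under quantile normalization and with a pseudocount of 5 RPM. Prmt5, the arginine methyltransferase that marks PIWI proteins for Tudor binding, had 16.3 RPM at 5% O2 and 42.0 RPM at 20% O2 (log2 difference -1.32). Gpat2, a mitochondrial protein needed for piRNA production, had 6.82 and 16.1 RPM (log2 difference -1.13), which fell short of 2-fold with that pseudocount and after division by exonic length, where the pseudocount of 1 acts on RPM per kb. Of the 24 genes, 17 had a higher RPM at 5% O2, where 62.6% of all genes tested had a difference above 0. The 2 genes lower by at least 2-fold, Prmt5 and Gpat2, stand against 9.22% of all genes tested, and the 3 higher against 18.7%.

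**Figure D5:**
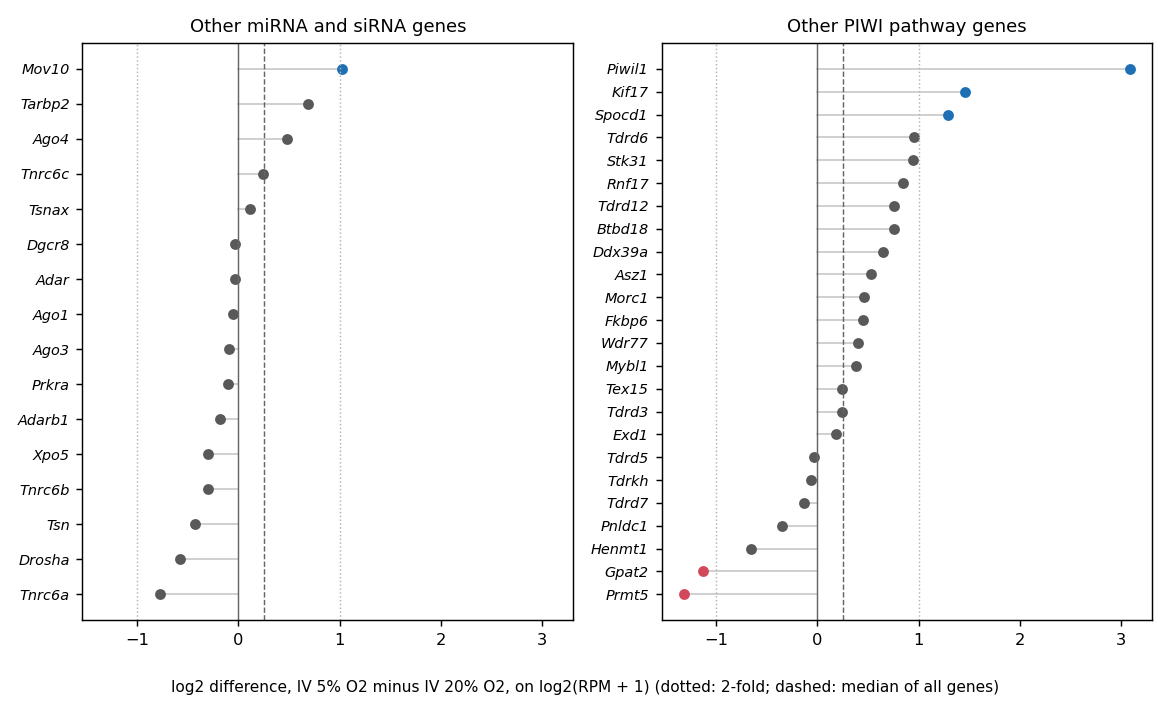
Log2 difference, IV 5% O2 minus IV 20% O2, of the 16 other miRNA and siRNA genes (left) and the 24 other PIWI pathway genes tested (right), with 2-fold dotted and the median of all genes dashed. Piwil1, Kif17, Spocd1 and Mov10 (blue) lie to the right of the upper 2-fold line, and Prmt5 and Gpat2 (red) to the left of the lower one.

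Markers of cell types were read to check the label, and 62.6% of all genes tested were higher at 5% O2, the share beside which each count below stands. All 12 oocyte markers are in the table, and they summed to 10221 RPM at 5% O2 and 14101 RPM at 20% O2. Of these markers, 9 of 12 were lower at 5% O2. As deposited, 5 of the silencing genes were lower at 5% O2, Piwil2 and Tdrd9 among them, and 5 were higher. Theca and stroma markers (9 of 13 in the table) summed to 39.3 and 4.99 RPM, and 9 of 9 were higher at 5% O2. Among them no read of Vim, Dcn or Col1a2 was counted at 20% O2, which by the floor of 3 reads used for a count of 0 allows up to 0.0734 RPM (the exact Poisson limit is 0.0902 RPM). Granulosa markers (6 of 11 in the table) summed to 41.3 and 29.8 RPM with 5 of 6 higher at 5% O2, endothelial markers (3 of 4) to 61.0 and 36.1 RPM with 3 of 3 higher, and macrophage markers (3 of 6) to 17.9 and 21.1 RPM with 2 of 3 higher. Most of the endothelial sum was Pecam1, with 45.9 RPM at 5% O2 and 32.7 RPM at 20% O2. The granulosa marker Fshr had no reads at 5% O2 and Inha had none at 20% O2, and Kdr and Lyz2 had none at 20% O2. The part of these cells in the differences of the silencing genes was not tested.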

How the data were processed

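Of the 24 samples of the series, the 4 RNA-seq libraries of class IV oocytes were used, and the bisulphite libraries were not analysed here. The authors aligned reads to GRCm38 with TopHat2 (version 2.0.9 in the submitters' processing notes) after Trim Galore, summed them over merged exons with SeqMonk and deposited the result as log2 values, 1 column per condition. The way a condition's 2 libraries were joined is not given in the sources used here. The methods describe a correction for feature length and an oocyte transcript annotation, and the values are named RPKM, but 99.98% of each column's linear values lay within 0.1 of a whole multiple of 1 step that all genes of a column share, so they were taken as log2 RPM, uncorrected for length. Genes with no reads stand at 0.9 of 1 read in the table and were given 0. A further value column (1 in all) belongs to no mapped sample and was left unused. The 10 genes and all lists were chosen with earlier results of these data known.

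Where a name had several rows (18 names), the highest mean decided which row was used. Differences used a pseudocount of 1 RPM and a mean of at least 1 RPM. Pooled columns allow no test, so genes at least 2-fold apart were counted. Counting intervals are exact (Clopper-Pearson for ratios, Poisson for levels, 95%), and a count of 0 allows up to 3 reads. The 2-fold calls, the ratio intervals and median-ratio scaling were tested on simulated reads with counting error only and planted changes larger than 2-fold. The other steps were not tested in this way. Of the 16572 genes, 16553 were matched to GENCODE M21, 16396 by the same coordinates. For all 10 genes the coordinates were the same. Windows of 50 and 100 bases, taken every 10 bases of exon, were called repeated if found at least 2 times in 22 chromosome sequences. At most 3.80% of the 50-base and 0.575% of the 100-base windows of any of the 10 genes were repeated, and in the wider lists at most 19.9% and 9.83% (Tarbp2), followed at 50 bases by Btbd18 (13.9%) and Tsnax (12.1%). RNA-seq libraries were stranded per the labels, but whether counting used strand is not given in the sources used here. Ddx39a was matched to the row Ddx39 by its RefSeq synonym.

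All 10 genes are described. Of the wider lists, the genes named are those at least 2-fold apart and the 2 most abundant per kb by the mean of both columns. Ago1, Ago3 and Ago4 as relatives of Ago2, the genes with an E-box, the pairs of genes whose ratio changed most, and Henmt1, Tex15, Tarbp2 and Drosha were named after their values were seen. The alternatives were pseudocounts of 0.1 and 5 RPM, quantile normalization, median-ratio scaling, no filter or a filter at 5 RPM, summed rows, the longest transcript for levels per kb and, added after the data were seen, division by exonic length. Scripts ran in Python 3.11.15 with matplotlib 3.10.9, scipy 1.17.1, pandas 2.3.3, numpy 2.4.6 and, for repeats, numba 0.67.0.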

Additional observations from a re-analysis of the deposited data

How the results depend on the processing

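No paired analysis was possible because each condition is 1 pooled column without replicate numbers, and so leaving out a replicate, the replicate block and limma were not run. The median log2 difference of the 10 genes, -0.082, was -0.397 under median-ratio scaling and -0.273 under quantile normalization. Relative to all genes it was -0.340, and -0.257 after division by exonic length and -0.259 with a pseudocount of 5. Direction reversed for Tdrd1 with median-ratio scaling (-0.059) and for Ddx4 with median-ratio scaling (-0.173) and quantile normalization (-0.051). Under median-ratio scaling, which shifts the columns by 0.320 on the log2 scale, 3 of the 10 genes were higher in IV 5% O2, and under quantile normalization 4, in place of 5. Of 80 values of the differences of single genes, 56 moved by no more than the distance from the log2 read ratio to the further of its 95% limits, 21 moved further and 3 reversed. The 56 include every value under no filter, the filter at 5 RPM and summed rows. These settings could not move a value, since each gene has 1 row and a mean above 5 RPM. Under median-ratio scaling every value moved further or reversed. The counts of 0 genes higher and 2 lower by at least 2-fold were the same under all 8 alternatives. Of these, no filter, the filter at 5 RPM and summed rows could not have changed the counts.

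For the other miRNA and siRNA genes, the median of -0.073 was -0.353 under median-ratio scaling and -0.260 under quantile normalization, and relative to all genes -0.331 became -0.228 with a pseudocount of 5. Mov10 was no longer 2-fold higher (0 genes in place of 1) under both scalings and with a pseudocount of 5, and after division by exonic length its mean was under the minimum, and Tnrc6a came to be lower (-1.09, 1 gene in place of 0) with median-ratio scaling. For the other PIWI pathway genes, the median of 0.427 was 0.308 after division by exonic length, 0.319 with a pseudocount of 5, 0.233 under quantile normalization and 0.142 under median-ratio scaling. With a pseudocount of 0.1, 5 genes in place of 3 were higher, Tdrd6 (1.07) and Btbd18 (1.03) being added, and after division by exonic length and with a pseudocount of 5, 1 gene in place of 2 was lower, Gpat2 being lost. Spocd1 was lost with a pseudocount of 5, a filter at 5 RPM, quantile normalization and division by exonic length. Each of these left 2 genes higher. Over all genes, the 2753 higher and 1356 lower by 2-fold became 3326 and 1625 with a pseudocount of 0.1, 3342 and 1533 with no filter, 1202 and 706 with a pseudocount of 5, 1691 and 917 with a filter at 5 RPM, 1609 and 899 after division by exonic length (chosen after seeing the data), where the pseudocount and minimum of 1 act on RPM per kb and 12089 genes in place of 14704 are tested, 1700 and 2031 under median-ratio scaling and 1764 and 1866 under quantile normalization. The cause of the other moves was not tested. The lower depth of IV 20% O2 limits Piwil1, Ago4 and Spocd1 there, at 21, 34 and 39 reads.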
